A study of Mus musculus with 25 samples.

Results

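The Dlx genes encode homeobox transcription factors related to Drosophila Distal-less. In the mouse 6 of them stand in 3 linked pairs, Dlx1/Dlx2 on chromosome 2, Dlx3/Dlx4 on chromosome 11 and Dlx5/Dlx6 on chromosome 6. They were taken by symbol from the 20665 autosomal protein-coding gene records of the mouse assembly, and all 6 were found. Each was measured by how much of its record and of the 5 kb on each side lay in peaks of H3K27me3. This is the trimethyl mark that PRC2, the Polycomb complex with Ezh2 as its enzyme, lays down over repressed developmental genes.

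The genes of a Dlx pair are transcribed towards each other, and the enhancers between them can act on both. Dlx1, Dlx2, Dlx5 and Dlx6 are active in the embryonic ventral forebrain, where they drive the making of GABAergic interneurons, and in the pharyngeal arches, where nested Dlx activity patterns the jaws. Dlx3 acts in skin, hair, teeth, placenta and bone, and Dlx4 in the pharyngeal arches. In cells that use none of these programmes, Dlx genes are textbook Polycomb targets.

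The study asked whether Polycomb target genes keep a memory of lost repression. Of its 25 libraries, 6 were CUT&RUN libraries of neural progenitor cells (NPC) made from wild-type embryonic stem cells, 2 each under UNC1999 (2 uM) together with A395 (4 uM), which both inhibit PRC2, after washout of the pair, and untreated. Another 12 were H3K27me3 ChIP-seq libraries of mouse embryonic fibroblasts (MEF) immortalized with c-myc, in 2 lines called A and B. Each line gave 2 Ezh2 -/- libraries (called reversible in line B), 2 with Ezh2 put back (from retroviral pMSCV-Ezh2 in line A, and by rescue of the endogenous gene in the case of line B) and 2 wild-type ones. The other 7 were input, RNA polymerase II, H3K4me3 and H3K36me3 libraries of line A that are labelled Ezh2 -/-, though their titles carry the name EZH2.

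What was analysed were 3 lists of peak positions, 1 for line A with 86235 peaks, 1 for line B with 81972 and 1 for NPC with 44807. The lists hold no heights and their depth is unknown. A MEF list is named after a wild-type and an Ezh2 -/- library of its line, and the NPC list names no treatment, so no effect of Ezh2 loss, of its rescue or of the inhibitors was compared. Each list is 1 peak set without replicates, and no difference between lists was tested. A stretch without a peak need not lack the mark, and between NPC and MEF the assay and the cell type changed together and cannot be told apart. Of 5 NPC marker genes, 0 had an NPC peak in their window, while 3 had a line A peak and 4 a line B peak. Of 6 fibroblast marker genes, line A peaks met 1, line B peaks 0 and NPC peaks 1. Over all genes line A peaks met 40.2%, line B peaks 40.9% and NPC peaks 31.9%, so counts over so few markers say little about the cells.

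The pairs differed from each other and the lists differed at the same pair. Dlx1 and Dlx2 were free of peaks in all 3 lists. Dlx5 and Dlx6 lay under 1 broad peak in line A and 1 in NPC and had 0 bp of peak in line B. Dlx3 and Dlx4 had peaks in all 3 lists, broad in line A, broken up in NPC and short in line B.

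The promoters that RefSeq gives for this family include starts without and within peaks. The table holds 2 of the 6 members, Dlx1 and Dlx2, which bear no peak, and the non-coding RNAs Dlx4os, Dlx6os1 (also called Evf2, a regulator of its neighbours Dlx5 and Dlx6) and Dlx6os2, which start within peaks. Each sequence runs 5′ to 3′ on the gene's own strand from 250 bases before to 50 after the start, in GRCm38.p6 (mm10), with every CpG in capitals. The Dlx1 window is chr2:71529195-71529494 (plus strand) and the Dlx2 window chr2:71546705-71547004 (minus strand). Dlx4os lies at chr11:95144803-95145102 (plus strand), and Dlx6os2 at chr6:6865101-6865400 (minus strand). Of the Dlx6os1 starts, the first lies at chr6:6869484-6869783 and the second at chr6:6861634-6861933 (minus strand).
Dlx1: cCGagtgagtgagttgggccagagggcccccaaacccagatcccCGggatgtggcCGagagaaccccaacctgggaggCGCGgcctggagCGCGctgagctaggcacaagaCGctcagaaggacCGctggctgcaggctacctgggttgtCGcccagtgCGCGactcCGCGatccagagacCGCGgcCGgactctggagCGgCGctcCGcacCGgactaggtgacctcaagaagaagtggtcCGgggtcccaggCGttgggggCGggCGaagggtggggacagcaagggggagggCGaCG
Dlx2: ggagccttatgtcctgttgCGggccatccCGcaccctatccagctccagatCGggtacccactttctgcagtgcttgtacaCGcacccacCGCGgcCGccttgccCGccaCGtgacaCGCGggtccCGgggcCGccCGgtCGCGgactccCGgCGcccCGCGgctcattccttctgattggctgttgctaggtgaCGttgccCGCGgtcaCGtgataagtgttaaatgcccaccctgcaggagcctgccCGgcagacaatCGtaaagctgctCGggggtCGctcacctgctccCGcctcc
Dlx4os: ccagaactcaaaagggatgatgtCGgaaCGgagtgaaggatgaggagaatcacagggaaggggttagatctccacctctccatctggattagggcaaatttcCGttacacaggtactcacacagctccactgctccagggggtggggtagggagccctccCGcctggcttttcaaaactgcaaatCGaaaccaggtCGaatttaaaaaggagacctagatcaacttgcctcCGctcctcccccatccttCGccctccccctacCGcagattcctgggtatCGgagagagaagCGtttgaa
Dlx6os1, first start: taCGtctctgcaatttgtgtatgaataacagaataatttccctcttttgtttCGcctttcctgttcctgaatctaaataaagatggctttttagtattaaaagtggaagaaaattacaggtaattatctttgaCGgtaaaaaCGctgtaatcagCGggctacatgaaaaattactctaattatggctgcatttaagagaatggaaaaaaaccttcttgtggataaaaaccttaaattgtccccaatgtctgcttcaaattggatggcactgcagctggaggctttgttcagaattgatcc
Dlx6os1, second start: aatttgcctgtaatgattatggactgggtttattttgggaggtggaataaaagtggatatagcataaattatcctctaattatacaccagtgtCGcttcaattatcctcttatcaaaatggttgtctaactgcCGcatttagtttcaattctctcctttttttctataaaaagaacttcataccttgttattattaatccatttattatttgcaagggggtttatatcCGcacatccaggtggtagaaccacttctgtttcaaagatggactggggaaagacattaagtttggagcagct
Dlx6os2: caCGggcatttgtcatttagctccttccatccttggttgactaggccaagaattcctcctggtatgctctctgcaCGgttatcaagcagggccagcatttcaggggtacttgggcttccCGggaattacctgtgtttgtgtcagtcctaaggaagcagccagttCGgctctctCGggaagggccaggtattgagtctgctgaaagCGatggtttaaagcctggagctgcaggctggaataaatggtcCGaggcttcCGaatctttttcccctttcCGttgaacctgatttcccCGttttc

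The Dlx1 and Dlx2 promoters are rich in CpG, with 27 and 29 CpG in 300 bases, counts that 16% and 13.3% of the 31396 autosomal promoters in the table reach. Peaks covered 0% of either in line A, line B and NPC. Among the 5015 promoters with at least 27 CpG, 8.61% overlapped a line A peak, 10.8% a line B peak and 9.95% an NPC peak, so a CpG-rich promoter without a peak is the common case in these lists. The Dlx4os promoter, with 11 CpG, was covered over 100% of its length in each of the 3 lists. Both Dlx6os1 promoters and that of Dlx6os2 were covered over 100% in line A and NPC and over 0% in line B. They hold fewer CpG, 5 and 3 at the first and second Dlx6os1 start and 10 at Dlx6os2. The covered starts shown are all of non-coding RNAs and none is of Dlx3 to Dlx6, so these counts do not describe covered Dlx gene promoters. The letters TAATT, the core that many homeodomains bind, were searched on both strands, where TAATTA counts once on each. They stand 7 times at the first Dlx6os1 start, 4 times at the second and once at Dlx6os2, and in none of the other windows shown. At least 1 match stands in 27% of the promoters in the table.

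**Figure D1:**
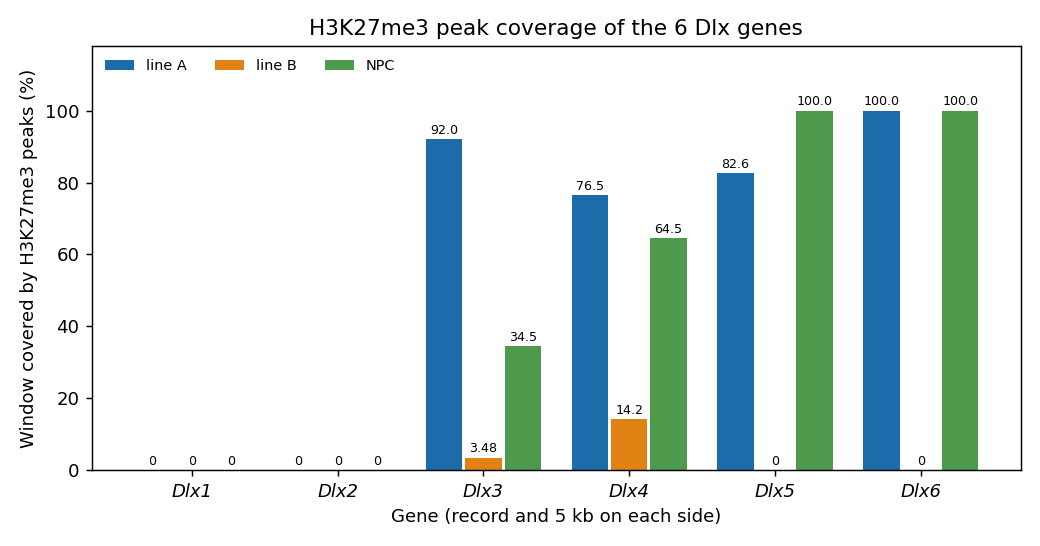
Bars give the share of each gene's window (record and 5 kb on each side, in percent) that lies in H3K27me3 peaks of line A, line B and NPC, 1 value per gene and list. Dlx1 and Dlx2 stand at 0 in every list, and the other members reach at least 76.5% in line A and no more than 14.2% in line B.

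By the loosest rule, at least 1 bp of peak in the window, line A peaks met 4 of the 6 Dlx genes, line B peaks 2 and NPC peaks 4. The same rule took 40.2% of all autosomal protein-coding genes in line A, 40.9% in line B, and 31.9% for NPC. When at least 50% of the window had to be covered, 4 Dlx genes remained in line A, 0 in line B, and 3 for NPC, against 9.98%, 9.71% and 3.91% of all genes. The median Dlx window was covered over 79.5% in line A, 0% in line B, and 49.5% for NPC, where the median over all genes was 0% in each list. Short records reach high shares more easily. Among the 2184 records of 3 to 6 kb, about the size of the Dlx records and a range chosen after the values were seen, 38.1% had a line A peak, 36.4% a line B peak and 26.5% an NPC peak. Of these records 13.4%, 13.0% and 6.23% were covered over at least 50% in line A, line B and NPC. Linked genes share peaks, so these counts rest on 3 loci rather than on 6 separate observations.

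Dlx1 and Dlx2 are the forebrain interneuron pair, needed together for the migration of cortical interneurons. Dlx1 (NCBI gene 13390, chromosome 2, 71528113 to 71533981) and Dlx2 (gene 13392, 71543408 to 71546754) span 18.6 kb, with 9.43 kb between the records. Coverage was 0 kb in line A, 0 kb in line B and 0 kb in NPC in the windows of both genes, in the spacer between them and at the antisense RNA Dlx1as. Absence from all 3 lists is common, at 44.8% of all genes and 50.3% of records of 3 to 6 kb.

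The pair lay in a long stretch without peaks in line A and NPC but not in line B. In line A the nearest peaks stood 320.4 kb below and 383.9 kb above the pair, and in NPC 964.4 kb below and 177.1 kb above ("below" and "above" are the sides of lower and higher coordinate). The line B list had its nearest peak 6.12 kb above the end of Dlx2, just outside the window. In the 100 kb above the pair line B held 11 peaks that covered 17.2 kb, the widest of them 7.5 kb (71581301 to 71588803), while line A and NPC covered 0 kb there. On the other side, the neighbours Metap1d, a mitochondrial methionine aminopeptidase gene 2.92 kb away, and Hat1, a histone acetyltransferase gene 86.5 kb away, had 0 kb covered in each list.

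**Figure D2:**
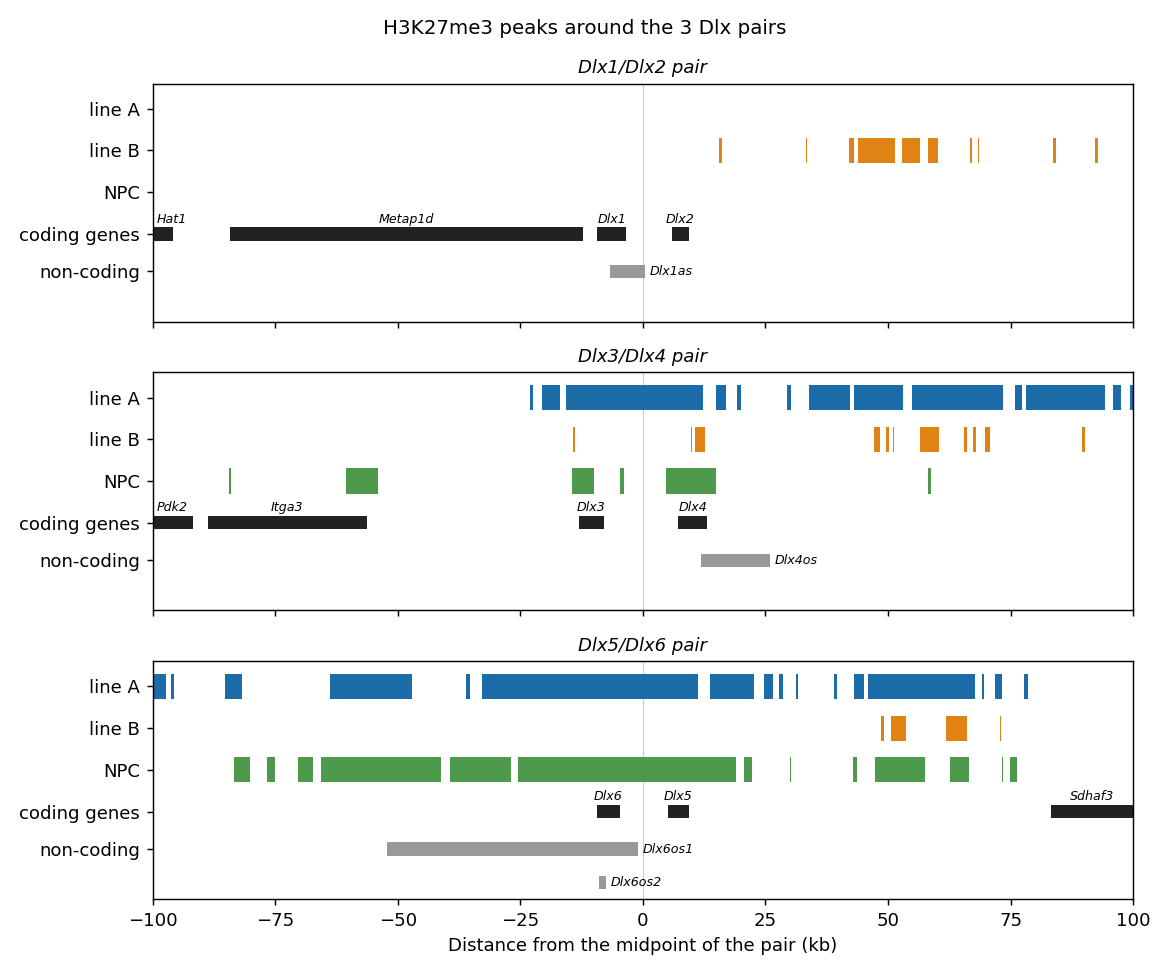
Each panel shows 1 Dlx pair, with distance from its midpoint in kb on the horizontal axis. Coloured blocks are H3K27me3 peaks of line A, line B and NPC, and black and grey bars are protein-coding and Dlx-related non-coding records. Broad line A and NPC blocks span Dlx5 and Dlx6, the line B blocks there begin 39.2 kb beyond the pair, and the Dlx1/Dlx2 panel holds line B blocks alone.

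Dlx5 and Dlx6, the pair that sets lower jaw identity and that also acts in limbs, bone and the inner ear, was the pair with the highest share of its span covered in line A and NPC. Dlx6 (gene 13396, chromosome 6, 6863334 to 6867970) had all 14.6 kb of its window covered in line A and in NPC, and 0 kb in line B. Dlx5 (gene 13395, 6877801 to 6882068) was covered over 11.8 kb of 14.3 kb in line A, 0 kb in line B and 14.3 kb in NPC. Its record was covered over 100% in both line A and NPC, and the uncovered part in line A lay in the flank above the record, of which 50.3% was covered. Full coverage of a window was rare, reached by 152 genes (0.736%) in line A and 98 genes (0.474%) in NPC.

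A single peak ran across both genes and the spacer in each of these lists. It was 44.1 kb wide in line A (6839815 to 6883892) and 44.5 kb in NPC (6847168 to 6891629), the 202nd widest of all line A peaks and the 152nd widest of all NPC peaks. The NPC peak began 7.35 kb and ended 7.74 kb further along the chromosome, and the peaks had 36.7 kb in common (6847168 to 6883892). The 9.83 kb spacer, where enhancers of this pair lie, was covered over 100% in line A, 0% in line B, and 100% for NPC. Within the pair and 5 kb around it, NPC peaks covered 100% and line A peaks 91.3%. All line A peak length there was therefore bound to lie in NPC peaks.

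The covered block extended past the pair on both sides. Once peaks less than 3 kb apart were joined, it reached 67.6 kb in line A (6836720 to 6904348) and 92.6 kb in NPC (6802332 to 6894935). Line A peaks covered 57.6% of the 100 kb below the pair and 41.2% of the 100 kb above it, line B peaks 0% and 8.28%, and NPC peaks 61.2% and 28.3%. Dlx6os1, which runs away from the pair on the side of Dlx6 and overlaps its record, had 47.7 kb of its 61.1 kb window covered in line A, 0 kb in line B and 57.9 kb in NPC. The nearest line B peak stood 39.2 kb above the end of Dlx5, and on the other side the nearest was 215.2 kb away. Sdhaf3, a respiratory complex assembly gene 73.9 kb above the pair, had 0.272 kb covered in line A and 0 kb in line B and NPC, so the covered stretch ended before the next protein-coding gene. A peak in line A and NPC with 0 bp in line B occurred at 3.74% of all genes and 3.89% of records of 3 to 6 kb.

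Dlx3 and Dlx4 had peaks in every list, as did 19.5% of all genes and 16.2% of records of 3 to 6 kb, and differed mainly in how much was covered. Dlx3 (gene 13393, chromosome 11, 95120117 to 95125296), mutated in the human tooth and bone disorder tricho-dento-osseous syndrome, was covered over 14.0 kb of its 15.2 kb window in line A, 0.528 kb in line B and 5.24 kb in NPC. Its record lay in peaks over 100% in line A, 0% in line B, and 61.8% for NPC. The line B value came from 1 peak of 528 bp that ended 0.663 kb below the record. It was 0% over the record alone, with peaks of at least 1000 bp and with the 44807 widest peaks, so under those settings Dlx3 had no line B peak. Dlx4 (gene 13394, 95140447 to 95146294) was covered over 12.1 kb of 15.8 kb in line A, 2.25 kb in line B and 10.2 kb in NPC, and its record over 86.6%, 38.5% and 100%. In NPC and line B the order of the 2 genes was thus Dlx4 above Dlx3, and in line A Dlx3 above Dlx4.

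In line A 1 peak of 27.9 kb (95117606 to 95145511) ran across both genes and the 15.2 kb spacer. NPC had 3 peaks here instead, of 4.55 kb over Dlx3 (95118770 to 95123315), 0.697 kb in the spacer and 10.2 kb over Dlx4 (95137910 to 95148125), and these covered 21.3% of the spacer. Line B had peaks of 0.528 kb beside Dlx3 and of 0.254 and 2.0 kb inside Dlx4, and covered 0% of the spacer. All 2.78 kb of line B peak in the pair and 5 kb around it also lay in NPC peaks, and 2.37 kb of it in line A peaks. Line A peaks covered 86.3% of that stretch and NPC peaks 42.7%, so the overlap with line A says little about position. The 2.37 kb common to all lists were the sole bases of the 3 Dlx pairs, with 5 kb around them, that every list covered, and the Dlx4os promoter printed above lies in them.

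Around this pair the peaks lay mostly on the side of Dlx4 in line A. Line A covered 6.76 kb of the 100 kb below the pair and 73.7 kb of the 100 kb above it, line B 0.528 and 8.98 kb, and NPC 8.25 and 2.88 kb. That line A flank holds no protein-coding record. Below the pair, Itga3, an integrin subunit gene, had 6.9 kb covered in NPC and 0 kb in line A and line B, Samd14 had 2.56 kb in line A and 0 kb elsewhere, and Pdk2, a pyruvate dehydrogenase kinase gene, had 0 kb in each list.

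**Figure D3:**
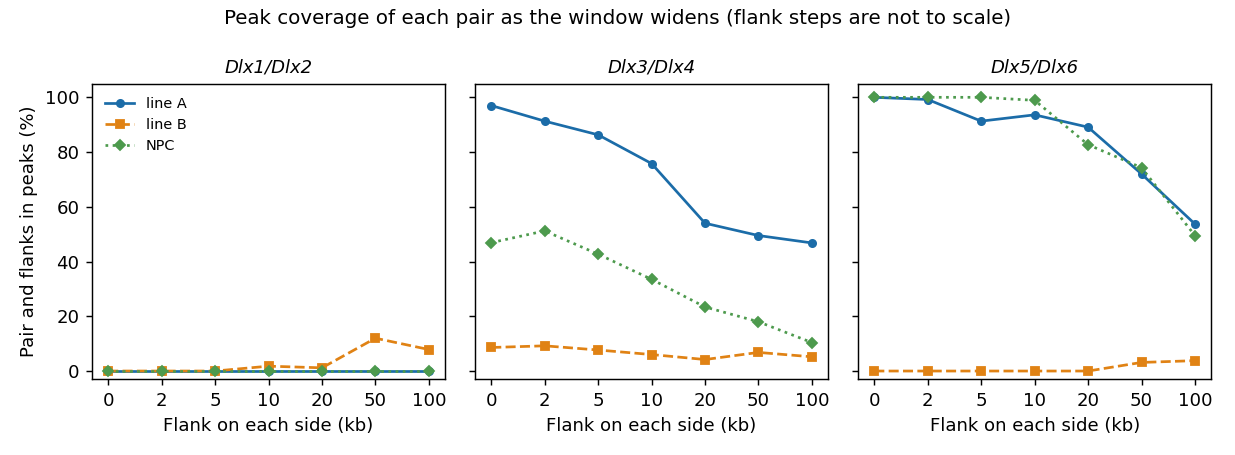
Lines give the share of each pair and its flanks in peaks (percent) as the flank on each side grows from 0 to 100 kb, for line A, line B and NPC, with 1 value per point. In line A and NPC the Dlx5/Dlx6 share falls from 100% to 53.7% and 49.5%, and Dlx1/Dlx2 stays at 0% in both.

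Taking the 3 pairs with 5 kb around them, line A peaks covered 57.5 kb, line B peaks 2.78 kb and NPC peaks 44.2 kb. Line A and NPC shared 39.1 kb, which was 68.0% of the line A length and 88.5% of the NPC length. Line A peaks covered 86.3% of the Dlx3/Dlx4 stretch and 91.3% of the Dlx5/Dlx6 stretch. They held 83.1% and 91.3% of the NPC length there, so shares lying in line A peaks say little about position. Line A and line B shared 2.37 kb, or 4.13% of the line A length and 85.5% of the line B length. With 50 kb around each pair, the last share was 44.8%, or 11.9 of 26.6 kb. Of the line B length there, 14.3 kb lay beside Dlx1/Dlx2, where line A had 0 kb. Over the autosomes the line A, line B and NPC lists covered 276.2, 235.7 and 136.9 Mb, so the line B list, with the least covered at the Dlx pairs, was longer than the NPC list overall.

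Each member's triple of shares was compared with those of other genes, by the root mean square difference over the 3 lists in percentage points and leaving out genes within 1 Mb. Dlx1 and Dlx2 tied with 8390 other genes at 0%. Closest to Dlx3 were the hair keratin-associated gene Krtap1-3 (4.44 points), the neuromedin B receptor gene Nmbr (5.07) and the muscle myosin gene Myh2 (5.34). Closest to Dlx4 were the lens crystallin genes Crybb1 (2.31 points) and Cryba4 (4.87), both on chromosome 5, and the cartilage aggrecan gene Acan (4.99). Dlx5 was most like Arid3a (3.07 points), the myoblast fusion gene Mymk (3.75) and the leptin gene Lep (7.54). Dlx6 matched Hsfy2 and the transcription factor gene Maf exactly, at 100%, 0% and 100% in line A, line B and NPC, followed by the hindlimb and jaw homeobox gene Pitx1 (1.96 points). The likeness rests on 3 values per gene.

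Among regulators that act upstream of Dlx genes in the forebrain and pharyngeal arches, line A peaks met 5 of 9, line B peaks 5 and NPC peaks 6. The ganglionic eminence factors Gsx1 and Gsx2 had all 12.3 kb of their windows covered in line A and line B, and in NPC Gsx1 had 0.74 kb and Gsx2 4.82 kb. Nkx2-1, of the medial ganglionic eminence, was covered over 13.8 kb in line A, against 15.0 kb in line B and NPC. Mef2c, which acts with endothelin signalling in the pharyngeal arches, was covered over 83.2 kb of 173.1 kb in line B and over 0 kb in line A and NPC. Line A peaks covered at least 50% of the window at 4 of the 9 regulators, line B peaks at 3 and NPC peaks at 1, and the medians were 3.81%, 46.5% and 7.58%. At 1 bp the shares of all genes were 40.2%, 40.9% and 31.9%, and at 50% coverage 9.98%, 9.71% and 3.91%. Edn1, Trp63 and Bmp4 had 0% covered in both line A and line B, and Ednra 3.81% in line A and 0% in line B. Hand2, of the lower jaw and heart, had 100% covered in line A and 46.5% in line B.

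Of 6 partner homeobox factor genes, line A peaks met 3, line B peaks 5 and NPC peaks 2, where 40.2%, 40.9% and 31.9% of all genes were met. At 50% coverage the counts were 3, 2 and 1, against 9.98%, 9.71% and 3.91% of all genes. Msx2, which opposes Dlx proteins in bone and tooth, was covered over all 15.9 kb in line A and NPC and over 9.96 kb in line B. Its relative Msx1 was covered over 14.1 kb in line A, 0.789 kb in line B and 0.945 kb in NPC. The stomach and tooth factor Barx1 was covered over 13.5 kb in line A, 13.5 kb in line B and 0 kb in NPC. Meis1, a homeobox cofactor, was covered over 0 kb in line A, 0.573 kb in line B and 0 kb in NPC. Its window is 149.2 kb long, so the line B call rested on 0.384% of it.

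Genes of GABAergic neurons, which Dlx1 and Dlx2 help to switch on, were met by line A peaks at 8 of 10 members, by line B peaks at 10 and by NPC peaks at 8, beside 40.2%, 40.9% and 31.9% of all genes. Some of their windows are far longer than those of Dlx genes, such as 125.4 kb at Nrp2, which was called in line B with 0.46% covered. At 50% coverage the counts were 5, 6 and 4 of 10 in line A, line B and NPC. The shares of all genes were then 9.98%, 9.71% and 3.91%. Gad1, which encodes a GABA-making enzyme, was covered over 45.4 kb of 50.7 kb in line A, 39.6 kb in line B and 4.39 kb in NPC. The GABA transporter gene Slc32a1 was covered over 14.7, 17.7 and 14.0 kb of 18.5 kb, and the neuropeptide gene Npy over 14.8, 16.8 and 15.5 kb of 16.8 kb, in line A, line B and NPC. Sp8, a factor of olfactory bulb interneurons, had 0 kb covered in line A and 16.3 kb in line B and NPC.

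Skeletal and pharyngeal arch genes downstream of Dlx factors were met by line A peaks at 6 of 10 members, by line B peaks at 4 and by NPC peaks at 4, and 4 members had 0 bp in each list. Over all genes these shares were 40.2%, 40.9%, 31.9% and 44.8%, so the line B and NPC counts and the count at 0 bp were near the background. At 50% coverage the counts were 3, 2 and 1 of 10, against 9.98%, 9.71% and 3.91% of all genes. Pitx1 was covered over 21.0 kb in line A, 0 kb in line B and 20.4 kb in NPC, like Dlx5 and Dlx6 with most of the window covered in line A and NPC and none in line B. Gbx2, a factor of the border between midbrain and hindbrain, was covered over 13.2 kb in line A, 13.2 kb in line B and 0 kb in NPC. Alpl, the alkaline phosphatase of mineralizing bone, was covered over 23.5 kb in line A, 7.22 kb in line B and 0 kb in NPC, and the bone sialoprotein gene Ibsp over 6.33, 15.8 and 0.383 kb.

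The homeobox genes of the Irx family, likewise 6, and Six2 to Six6, which also stand partly in clusters, gave other values. Dlx windows were covered over medians of 79.5% in line A, 0% in line B, and 49.5% for NPC, against 16.7%, 29.6% and 6.88% for Irx genes and 100%, 93.3% and 8.24% for Six2 to Six6. In the MEF lists the values of Six2 to Six6 were 0% or from 93.3% to 100%, so 1 gene more or less could move these medians far. Irx4 was covered over 16.6, 13.4 and 13.3 kb and Irx6 over 15.7, 15.9 and 4.09 kb in line A, line B and NPC, and 1 of the 6 Irx genes over 0 kb in each. Six2, of the kidney, was covered over 35.5, 33.1 and 2.93 kb, Six3, of the forebrain and eye, over 22.6, 22.6 and 6.72 kb, and Six6, of the eye and pituitary, over 15.0, 14.7 and 2.46 kb. The other 2 of Six2 to Six6 had 0 kb in every list. The 4 Dlx genes covered over at least 50% in line A were covered over 0% to 14.2% in line B. They belong to the linked pairs Dlx3/Dlx4 and Dlx5/Dlx6. The 5 genes of the other families that line A covered that far were covered over 67.0% to 100% in line B. In the other gene lists, Pitx1 (99.5% in line A, 0% in line B) and Msx1 (100% and 5.6%) were like these Dlx genes. Gsx1, Gsx2, Barx1 and Gbx2 had 100% covered in both MEF lists. The share of all genes with this pattern was not counted. The difference between families was not tested.

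**Figure D4:**
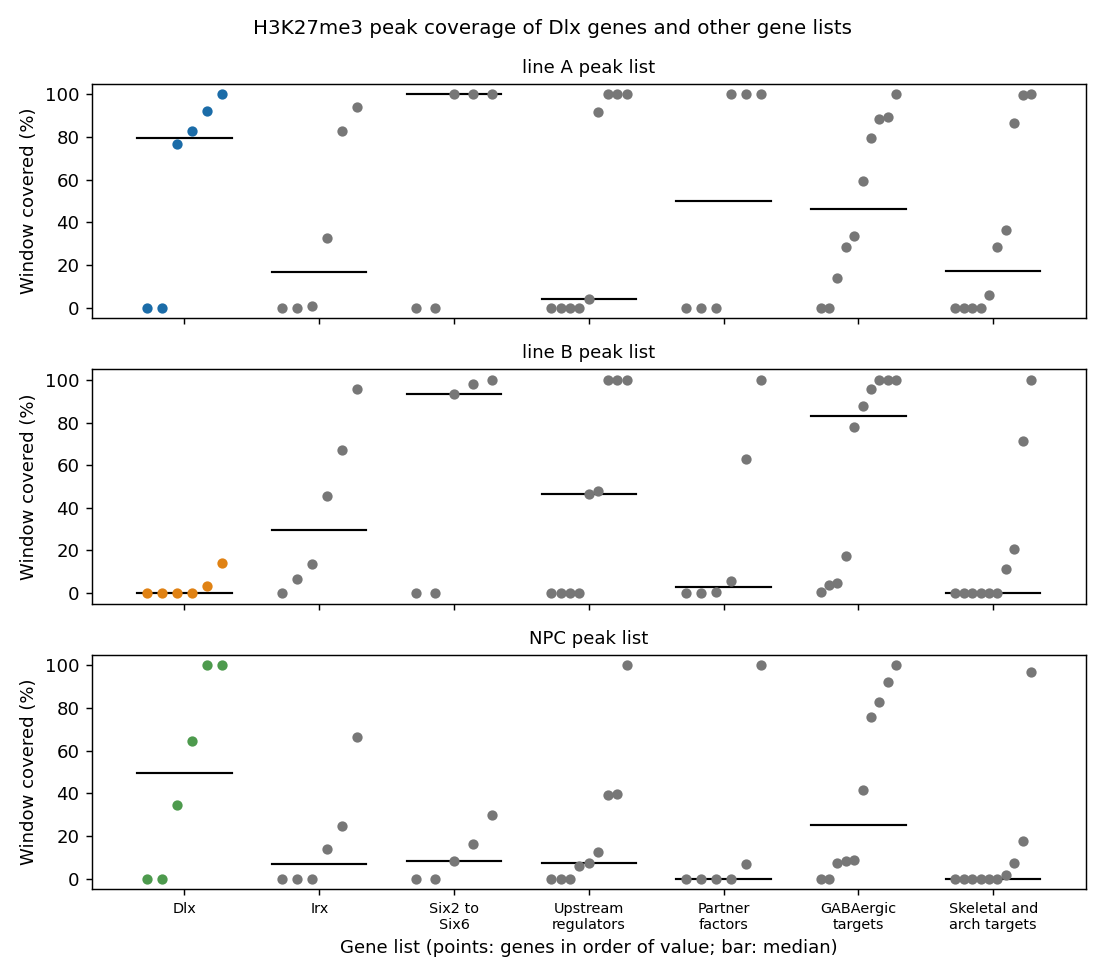
Points give the share of a gene's window in peaks (percent), for Dlx genes, Irx genes and Six2 to Six6, upstream regulators, partner factors, and GABAergic and skeletal genes, in line A, line B and NPC from top to bottom. Points are spread by rank within a list and black bars are medians, which for Dlx genes lie at 79.5%, 0% and 49.5%.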

How the data were processed

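The deposited files are 3 peak lists whose columns are chromosome, start and end, with nothing else. They belong to the series, not to single samples. The submitters' processing notes name MACS2 2.1.1.20160309, deepTools, DESeq2, Picard, Bowtie2 2.2.9 and the builds dm6 and mm10, with neither role nor order. The peak threshold, control and pooling of libraries are not stated, and the depth is unknown, as is whether replicates are separate cultures. Starts were read as 0-based and are printed 1-based. Gene records came from RefSeq (GRCm38.p6, the assembly of mm10), in a table with no strand or exons.

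Covered length was computed with Python 3.11.15, numpy 2.4.6 and pandas 2.3.3, in scripts tested on simulated peaks, and plotted with matplotlib 3.10.9. A gene was called at 1 bp or more of peak in its window, or at 50% covered. The genes named are the members, up to 4 per list by covered length summed over the 3 peak lists, protein-coding neighbours within 100 kb and the 3 most alike genes, without predicted ones. Hand2, Edn1, Ednra, Trp63, Bmp4 and Nrp2 were named outside that rule. The Dlx non-coding RNAs were added after their values were seen. Members and lists were chosen with earlier results of these data known. Some genes of these lists are not reported here and were left out of the counts. No test was run. Alternatives changed the window, the peaks kept and the joining of peaks.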

Additional observations from a re-analysis of the deposited data

How the results depend on the processing

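Of 102 alternative values for counts, shares and overlaps over the Dlx genes and pairs, 94 lay within 1.5 times the value reported, and 8 did not, all of which involve line B. Some of these values, and of those for single genes below, could not move. Keeping the 44807 widest peaks leaves the NPC list whole, and dropping narrow peaks cannot raise the 0% of Dlx1/Dlx2. The share of the 6 windows covered in line B was 3.14%, against 7.72% over the records alone and 5.23% with 2 kb around them, as the narrower windows leave out bare flanks. Line B had 2 Dlx genes with a peak. It had 1 over records alone, 1 with peaks of at least 1000 bp and 1 with only the 44807 widest peaks. The gene lost was Dlx3 each time. With 10 kb on each side line B had 3, a change of 1 gene that the 1.5 times rule passes. The rule also passes changes in the NPC count of Dlx genes covered over at least 50%. That count was 3, against 4 over records alone and 2 with 10 kb on each side. With 50 kb around each pair, line A and line B shared 8.05% of the line A length and 44.8% of the line B length, and line B and NPC shared 27.1% of the line B length, against 4.13%, 85.5% and 100% with 5 kb. A floor of 1000 bp on peak width, added after the data were seen, moved no overlap by more than 1.5 times. Among single genes 14 of 108 values moved by more, for Dlx2, Dlx3 and Dlx4 in line B and for Dlx3 and Dlx4 in NPC, none of them for Dlx1, Dlx5 or Dlx6. Dlx2 had 2.94% of a window with 10 kb on each side covered in line B. No paired analysis was possible because the peak lists hold no values per replicate. Leaving out a replicate was not possible for the same reason. Without heights or depth, a weak signal below the authors' threshold cannot be told from none.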
